A study of Mus musculus with 4 samples.

Results

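The histone gene clusters of the mouse were examined in hippocampal tissue by the acetylation of histone H3 at lysine 27 (H3K27ac). Members were the protein-coding genes of GENCODE M21, on build mm10, whose symbols begin with Hist1h, Hist2h, Hist3h or Hist4h. This rule gave 67 of 21853 protein-coding genes. Of these, 54 belong to Hist1 on chromosome 13, 10 to Hist2 on chromosome 3, 2 to Hist3 on chromosome 11 and 1 to Hist4 on chromosome 6. By type the members are 6 genes for H1, 18 for H2A, 18 for H2B, 12 for H3 and 13 for H4.

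H3K27ac marks active promoters and enhancers, and ChIP-seq maps it by sequencing the DNA that an antibody against the mark pulls down. The tissue was the layer of the hippocampus of male B6CASTF1/J mice, an F1 hybrid of C57BL/6 and CAST, aged 2 months. Pools C and D, biological replicates 1 and 2, each combined 7 biosamples. Every pool had 2 technical replicates, and its fragments ran from 200 to 600 bp. There was 1 condition, no treatment and no control group, so the values below are descriptions without a test. The authors deposited 4 peak lists: the replicated peaks, those called on the pools together (the combined list), and the lists of pool C and of pool D. All values are from the replicated list unless another is named.

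Clustered histone genes are compact and mostly lack introns, and their transcripts end in a stem-loop in place of a poly(A) tail. Transcription of most of them rises in S phase, when new DNA is packed with H2A, H2B, H3 and H4 in the nucleosome core and with the linker histone H1. Replacement histones such as H3.3 and H2A.Z are encoded outside the clusters and are made throughout the cell cycle. Some clustered genes are also known to give polyadenylated transcripts in differentiated cells, and a few encode variants made in the developing male germ line. Most cells of the adult hippocampus, neurons among them, no longer divide.

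A promoter peak was a peak within 1 kb of the transcription start site (TSS) of a protein-coding transcript, and a gene with such a peak is called marked. In the replicated list 54 of 67 histone genes were marked, or 80.6% (95% Wilson interval 69.6 to 88.3), against a background of 60.8% of all protein-coding genes. The interval covers the counting of genes only, and neighbouring members share peaks. The combined list marked 55 histone genes (background 61.7%), the pool C list 55 (61.4%) and the pool D list 50 (57.1%). Most histone genes are short, and of the other coding genes no longer than 2 kb 22% were marked (337 of 1530). Those genes were not matched to the members for CpG content. With an observed to expected CpG ratio of 0.6 or more, 91.7% of other coding genes and 37 of 45 histone genes were marked. As a check of the labelled tissue, all 10 neuron, all 8 astrocyte and all 8 oligodendrocyte markers had a promoter peak, with 5 of 8 for microglia and 1 of 10 for male germ cells. In mixed tissue, fewer cells carrying the mark and less mark per cell cannot be told apart.

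Promoter sequences showed how alike the members are and where they differ. The first set below holds the stretches between the TSSs of divergent H2A and H2B genes, which share 1 promoter region. Each is read on build GRCm38 from the H2A start to the H2B start, outside the transcripts of GENCODE and RefSeq. Capitals mark the CCAAT box, the TATAAA element and the octamer ATTTGCAT, each on either strand. Hist1h2ae and Hist1h2bg, at chr13:23571221-23571395 on the plus strand, are the example of a marked pair. Hist1h2aa and Hist1h2ba, at chr13:23934157-23934436 on the minus strand, are the testis pair. Hist1h2ah and Hist1h2bk, at chr13:22035644-22035820 on the plus strand, are a pair without a promoter peak whose sequence is mostly not repeated elsewhere.
Hist1h2ae to Hist1h2bg: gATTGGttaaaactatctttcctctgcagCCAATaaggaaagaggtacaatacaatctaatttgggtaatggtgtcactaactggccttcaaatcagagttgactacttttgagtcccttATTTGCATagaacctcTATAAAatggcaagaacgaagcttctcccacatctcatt
Hist1h2aa to Hist1h2ba: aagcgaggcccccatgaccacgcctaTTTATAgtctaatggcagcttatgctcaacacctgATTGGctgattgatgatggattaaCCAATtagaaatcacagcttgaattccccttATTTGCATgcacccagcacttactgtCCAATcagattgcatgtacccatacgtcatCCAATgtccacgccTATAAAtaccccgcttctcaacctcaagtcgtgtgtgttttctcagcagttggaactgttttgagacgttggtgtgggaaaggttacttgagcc
Hist1h2ah to Hist1h2bk: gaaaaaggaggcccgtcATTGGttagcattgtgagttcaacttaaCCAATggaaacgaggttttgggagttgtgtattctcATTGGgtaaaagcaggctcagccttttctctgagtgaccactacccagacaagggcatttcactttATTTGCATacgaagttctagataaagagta
All 3 stretches hold the octamer once, a motif known from H2B promoters, and several CCAAT boxes. The marked pair holds 2 of the CCAAT boxes, the testis pair 4 and the third pair 3.

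The second set shows a copied promoter, also without a peak. The stretch between Hist1h2ap and Hist1h2br, at chr13:21833508-21833742 on the plus strand, and that between Hist1h2ao and Hist1h2bq, at chr13:21810200-21810366 on the minus strand, are read and capitalised as above.
Hist1h2ap to Hist1h2br: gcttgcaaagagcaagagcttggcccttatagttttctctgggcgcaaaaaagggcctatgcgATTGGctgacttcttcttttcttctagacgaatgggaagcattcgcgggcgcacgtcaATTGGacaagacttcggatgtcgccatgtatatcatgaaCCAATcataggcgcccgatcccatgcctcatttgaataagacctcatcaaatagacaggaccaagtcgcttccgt
Hist1h2ao to Hist1h2bq: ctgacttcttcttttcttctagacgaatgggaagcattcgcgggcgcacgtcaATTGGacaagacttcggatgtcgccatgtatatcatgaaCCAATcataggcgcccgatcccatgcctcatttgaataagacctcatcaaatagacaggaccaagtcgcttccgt
The shorter stretch lies whole within the longer, with 167 of 167 bases the same. The 300-base windows at the starts of Hist1h2bq and Hist1h2br were the same at 300 of 300 bases. Those of Hist1h4m and Hist1h4n were the same at 298 of 299 compared bases.

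The third set gives the 150 bases before the start of 2 linker histone genes, with capitals for the CCAAT box, the TATAAA element and AAACACA, a box known from H1 promoters. Hist1h1e lies at chr13:23622559-23622708 on the minus strand and was the most strongly marked H1 gene. Hist1h1t, the testis H1, lies at chr13:23695661-23695810 on the plus strand and was unmarked.
Hist1h1e: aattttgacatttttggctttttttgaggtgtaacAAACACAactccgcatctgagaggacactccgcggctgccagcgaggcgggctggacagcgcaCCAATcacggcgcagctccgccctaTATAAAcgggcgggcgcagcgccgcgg
Hist1h1t: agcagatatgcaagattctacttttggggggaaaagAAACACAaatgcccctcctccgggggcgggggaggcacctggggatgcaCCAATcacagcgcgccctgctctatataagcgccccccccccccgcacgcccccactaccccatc
Both hold AAACACA upstream of a CCAAT box, and TATAAA is in the stretch of Hist1h1e but not in that of Hist1h1t. Only exact matches were counted, so the tatataa in the stretch of Hist1h1t is not marked.

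Across RefSeq promoters (GRCm38.p6, 250 bases before to 50 after the start), 62 of 67 members were matched by symbol or synonym. Hist1h2bc, Hist1h3a, Hist1h3f, Hist2h2be and Hist2h4 were not matched. CCAAT, searched on both strands, was in 53 of 62 histone promoters (85.5%) against 39% of 17492 coding promoters. The H4 genes had it in 3 of 12, whereas all matched H1, H2A, H2B and H3 promoters had it. TATAAA was in 35 of 62 (56.5%) against 13.3%. It was in 4 of 6 H1 promoters, and both Hist1h1t and the marked gene Hist1h1c lacked it. The octamer ATTTGCAT was in 14 of 62 (22.6%) against 1.71%: 7 of 18 H2A, 7 of 16 H2B and no H1, H3 or H4 promoter. AAACACA was in 5 of 6 H1 promoters and 9 of 62 in all (14.5%), against 6.13%. The testis variants all held CCAAT and AAACACA, and the octamer was in both testis core genes. Divergent partners share much of their window, so their matches are not separate.

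The testis variants had lower CpG content than most members. The ratio of observed to expected CpG had a median of 0.74 over the 62 histone promoters, with a range of 0.25 to 1.31, against 0.58 for all coding promoters. It was 0.45 in Hist1h1t, 0.45 in Hist1h2ba and 0.55 in Hist1h2aa. Among other coding genes, 91.7% of those with a ratio of 0.6 or more were marked and 34.4% of those below it. Of the histone genes below 0.6, 12 of 17 were marked, and of those at 0.6 or more 37 of 45. Apart from the testis variants, 10 members had a ratio of 0.55 or lower and 8 of these were marked, among them Hist1h2bn (0.25), Hist1h2bb (0.28) and Hist1h4b (0.33).

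Signals differed between clusters, and no difference was tested. The intervals of the marked shares were wide in the small clusters, so their overlap says nothing about likeness. Hist1 had 42 of 54 genes marked (77.8%, 65.1 to 86.8), Hist2 had 9 of 10 (59.6 to 98.2), Hist3 had 2 of 2 (34.2 to 100) and the single Hist4 gene was marked (20.7 to 100). The deposited signal of a peak is the authors' value, and a gene took that of its strongest promoter peak. To set genes beside each other, signals were ranked as the percent of all marked coding genes with a weaker promoter signal. The median signal of marked histone genes was 9.02, with a range of 4.08 to 32.9, against 13.8 for all marked coding genes. Their median rank was 25.6%, and 18 of 54 lay above the median marked gene, against a background of 49.8%. Of the 54 marked histone genes, 51 kept a promoter peak above the median signal of the whole list. This was no trait of histone genes, since 12545 of the 13290 marked coding genes did so too.

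Hist1 and the smaller clusters fell on different sides of that median. The 42 marked Hist1 genes had a median signal of 8.91 and a median rank of 24.9%. The 12 marked genes outside Hist1 had a median signal of 22.1 and a median rank of 84.9%. In Hist1, 9 of 42 ranked above 50%, and outside Hist1 9 of 12 did. In pool C the medians were 27.0% in Hist1 and 83.6% outside it, and in pool D 21.5% and 88.1%.

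Hist2h2ab, Hist2h2ac and Hist2h2be had the highest signal, all from a single peak of 4377 bp (chr3:96218633-96223009) that also lay within 1 kb of Bola1. Hist2h2ab and Hist2h2ac encode H2A, and Hist2h2be encodes H2B. Their signal was 32.9 in the replicated and combined lists, 34.7 in pool C and 24.4 in pool D, with ranks of 98.1%, 98.1%, 97.2% and 98.0%. These ranks were the highest of all members in each of the 4 lists.

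Hist4h4, an H4 gene that lies alone on chromosome 6, had a signal of 27.7 in the replicated list, 32.1 in pool C and 21.5 in pool D. Its ranks were 94.4%, 95.2% and 95.9%. Hist2h4, the H4 gene of Hist2, had signals of 25.7, 28.7 and 18.8 in the same lists, with ranks of 92.0%, 91.4% and 92.0%. The H4 genes of Hist1 stayed lower, with a median rank of 24.8% over 9 marked genes, and Hist1h4h was the highest of them at 18.9 (rank 74.4%).

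Hist2h2aa1 and Hist2h2aa2, near-copies of an H2A gene with 249 of 260 compared promoter bases the same, had signals of 22.9 and 16.9. Each had its own peak and in neither did the TSS lie inside it. Hist2h3b (H3) and Hist2h2bb (H2B) shared a peak with a signal of 12.8 and a rank of 45.2%. Hist2h3c2 (H3) had the weakest Hist2 peak, at 9.72 over 290 bp. Its near-copy Hist2h3c1, with 284 of 285 compared bases the same, had its nearest peak 1312 bp away and was unmarked in all 4 lists.

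In Hist3, Hist3h2ba (H2B) had a signal of 21.3 (rank 82.9%) and Hist3h2a (H2A) 20.6 (rank 80.3%). The peak of Hist3h2a was the widest of the histone promoter peaks, at 7960 bp, and also lay within 1 kb of the start of Trim17. In pool C both genes ranked between 80.6% and 81.2%, and in pool D between 81.9% and 84.5%. In all, 10 of the 54 marked histone genes ranked above 80% in every list. Ranks are taken among all marked coding genes, so by definition about 80% of those rank below this limit in each list. The share of all marked coding genes above it in every list was not computed. Some of the 10 share a peak: Hist2h2ab, Hist2h2ac and Hist2h2be do, and so do Hist1h1e and Hist1h2be.

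**Figure D1:**
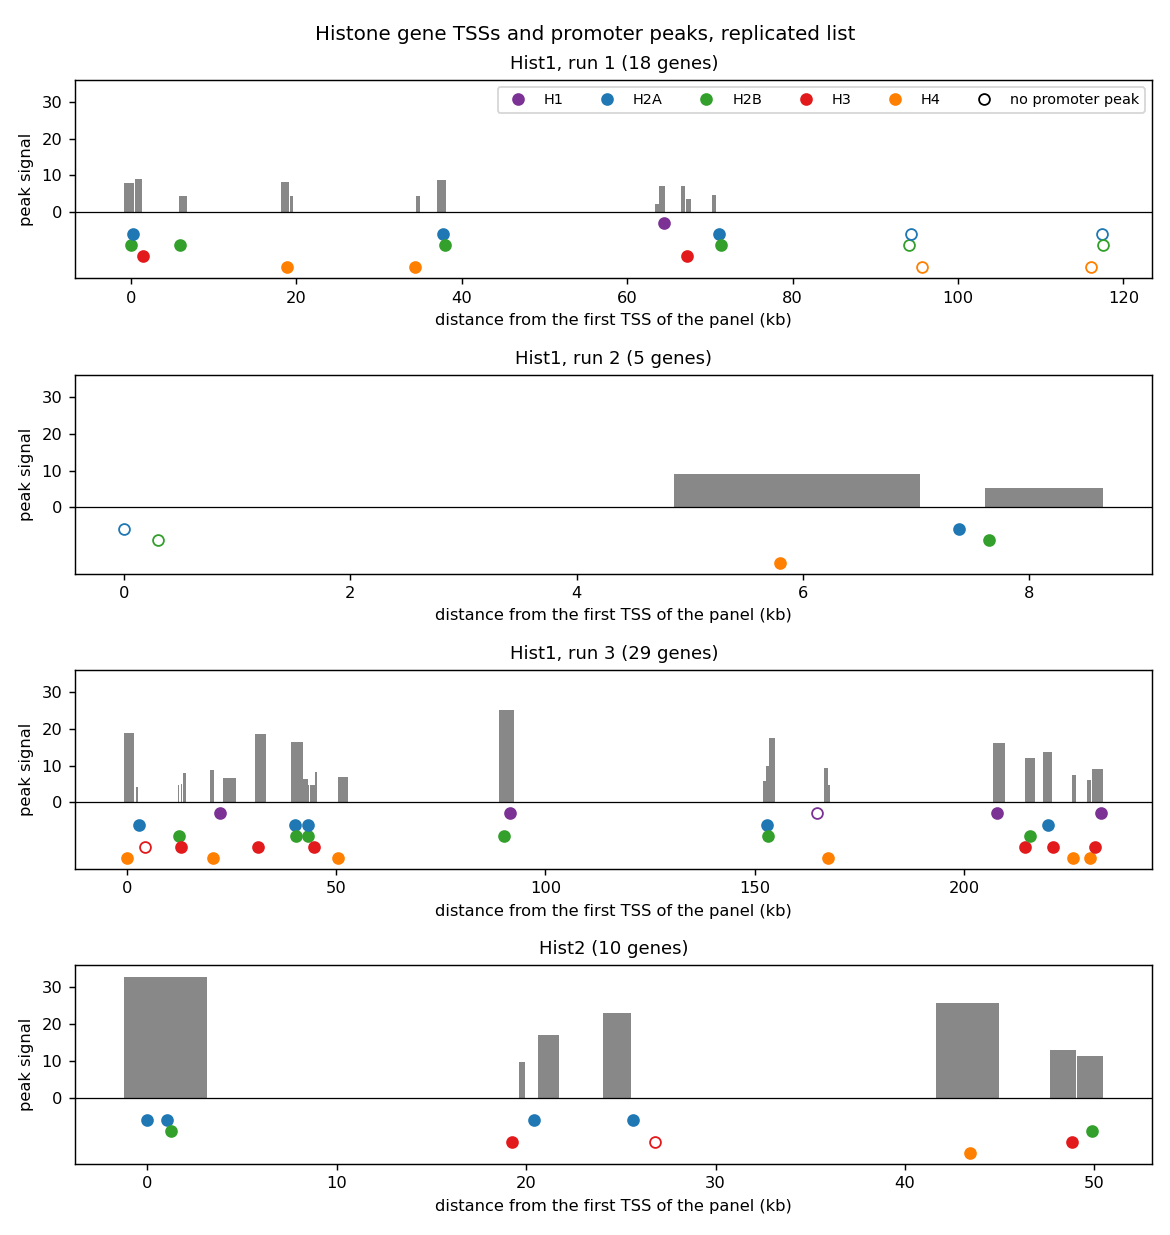
Histone TSSs (circles, filled where a promoter peak was found) and histone promoter peaks (grey bars, height the authors' signal, replicated list) in the 3 larger Hist1 runs and in Hist2, by distance from the first TSS of each panel in kb. Bars in run 1 stay below 10, the last 6 genes of run 1 have open circles, and the tallest bar of Hist2 reaches 32.9.

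Gaps of more than 100 kb between neighbouring TSSs split Hist1 into 4 runs of genes. Run 1 (chr13:21715763-21837530) had 12 of 18 genes marked, run 2 (chr13:22035164-22043676) 3 of 5, run 3 (chr13:23531050-23764406) 27 of 29, and run 4, the testis pair (chr13:23933773-23934851), 0 of 2. Marked genes of run 1 had a median signal of 7.65 and none had a signal above 8.91. Those of run 3 had a median of 9.34 and a highest value of 25.1. The 3 marked genes of run 2 shared a peak with a signal of 9.02.

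The strongest peak of Hist1 lay in run 3 and covered the whole of Hist1h1e (3649 bp, chr13:23619897-23623545). The annotated gene start of Hist1h2be lies inside Hist1h1e, on the same strand. Hist1h1e, a linker histone, had a signal of 25.1 in the replicated list, 29.7 in pool C and 17.5 in pool D, with ranks of 91.2%, 92.8% and 89.1%. Hist1h2be (H2B) took the same peak through starts at 23621094 (GENCODE and RefSeq) and 23621124 (GENCODE), far from its coding sequence at chr13:23585579-23585956. RefSeq also gives it a start at 23585970, and the peak there had a signal of 16.8.

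Peaks covered 6.95% of the bases of run 1, 31.4% of run 2, 18.3% of run 3, none of run 4, 26% of Hist2 and 90.9% of Hist3, against 4.37% of the genome. For run 1 the pool C list gave 8.32% and the pool D list 4.15%. Almost all peaks inside the runs were at histone starts: 12 of 13 in run 1 and 26 of 29 in run 3. Between the first and the last Hist1 gene lie 49 other coding genes, and 6 of these were marked. Among these are 36 vomeronasal receptor genes of the Vmn1r family, of which Vmn1r199 alone was marked. Hfe, an iron regulator that lies inside run 3, had a promoter signal of 6.36.

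**Figure D2:**
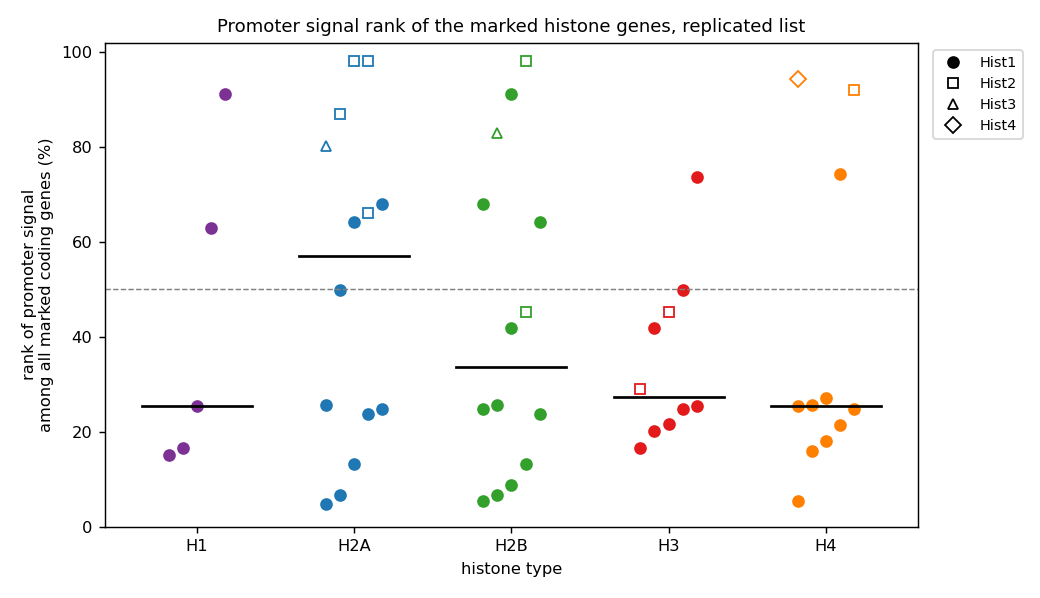
Rank of the strongest promoter signal among all marked coding genes (percent, replicated list) for the 54 marked histone genes, by type; filled circles are Hist1 genes, open symbols the other clusters and black lines the medians of each type. Open symbols lie at the top of the H2A, H2B and H4 columns, and most filled circles lie below 50%.

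Histone types were marked at similar shares. Promoter peaks were found at 5 of 6 H1, 14 of 18 H2A, 14 of 18 H2B, 10 of 12 H3 and 11 of 13 H4 genes. The Wilson intervals were wide, from 43.6 to 97.0% for H1 to 57.8 to 95.7% for H4. With so few genes that share peaks, their overlap does not show that the types are alike. Median ranks were 25.5% for H1, 57.1% for H2A, 33.7% for H2B, 27.2% for H3 and 25.5% for H4. Within Hist1 alone the medians were 25.5% (5 genes), 24.9% (9), 24.9% (11), 25.2% (8) and 24.8% (9) in the same order. They lay further apart in the single pools, at 27.0%, 30.1%, 30.1%, 23.1% and 23.7% in pool C and 43.9%, 19.5%, 23.5%, 22.7% and 18.5% in pool D. Over all clusters the H2B genes had a median rank of 51.2% in pool C and 46.0% in pool D, and the H1 genes 27.0% and 43.9%. The higher median of all H2A genes in the replicated list came with the 5 marked H2A genes of Hist2 and Hist3, which ranked from 66.1% to 98.1%.

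Among the H1 genes, Hist1h1e was followed by Hist1h1c at a signal of 16.2 (rank 62.9%). Hist1h1a reached 9.02, Hist1h1b 7.08 and Hist1h1d 6.70. These 5 encode the linker histones of somatic cells. Hist1h1d was marked in pool C, at a rank of 26.3%, and not in pool D. Its GENCODE start lay 821 bp from its replicated peak and 1050 bp from the nearest pool D peak, just outside the window. RefSeq gives it a start at 23555032, inside the replicated peak, so its call depends on the start used.

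For H2A and H2B in Hist1, Hist1h2ac and Hist1h2bc shared a peak with a signal of 17.4 (rank 68.1%), and Hist1h2ae and Hist1h2bg shared another with 16.5 (rank 64.2%). The lowest values were 4.08 for Hist1h2af and 4.28 for Hist1h2bm, and neither was marked in pool D. For H3, Hist1h3e was highest at 18.7 (rank 73.6%), followed by Hist1h3b at 13.8. The peak of Hist1h3b was shared with Hist1h2ab, covered the whole of that gene and ended 164 bp before the start of Hist1h3b. Hist1h3i and Hist1h3f were lowest, at 7.06 and 7.90.

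For H4 in Hist1, Hist1h4h had a signal of 18.9, 15.9 in pool C and 15.3 in pool D. Its ranks were 74.4%, 50.4% and 81.2%. Hist1h4k was lowest, at 4.28 in the replicated list and 2.97 in pool D (rank 0.7%). Hist1h4d had a signal of 6.83 over a peak of 2423 bp, so width and signal did not go together in every gene.

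Some members have longer annotated gene models than the usual compact histone gene. Of the 19 members with a gene model over 1 kb, 16 were marked, with a median rank of 65.5% and 9 above 50%. Of the 48 compact members 38 were marked, with a median rank of 25.6% and 9 above 50%. This split was chosen after the values were seen. Of all marked coding genes, 49.8% lay above the median. The 9 long models above 50% were Hist2h2be, Hist4h4, Hist2h4, Hist1h1e, Hist1h2be, Hist3h2a, Hist1h2ac, Hist1h2bc and Hist1h1c. Hist2h2be, Hist4h4, Hist2h4 and Hist3h2a lie outside Hist1, so length was not separated from cluster. Hist1h1e and Hist1h2be share a peak, as do Hist1h2ac and Hist1h2bc, and Hist2h2be shares that of the compact genes Hist2h2ab and Hist2h2ac. The other 7 marked long models, Hist1h2bp, Hist1h2bh, Hist1h1d, Hist1h4d, Hist1h3f, Hist1h3d and Hist2h3c2, all ranked below 50%, with Hist1h2bp lowest at 6.7%. Hist1h2bq, Hist1h2br and Hist2h3c1 were the 3 long models without a promoter peak.

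Several genes often shared a peak. Of the 54 marked histone genes, 33 (61.1%) took their signal from a peak that also lay within 1 kb of another coding gene, against 20.3% of all marked coding genes. The 54 genes had 51 promoter peaks between them. Of these, 24 (47.1%) lay within 1 kb of 2 or more coding genes, against 9.91% of all coding promoter peaks. Clustered genes lie close together, so the 1 kb windows of neighbours often overlap, which favours sharing. Neither background was matched for the spacing of genes. In 23 of these peaks the genes included 2 or more histone genes, and 5 peaks lay within 1 kb of 3. Bola1 and Trim17 were the 2 other genes that shared a histone promoter peak.

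The 5 peaks within 1 kb of 3 histone genes mixed types, and the starts need not lie inside them. The first was near Hist1h2ai, Hist1h2bl and Hist1h3h (signal 8.91), whose starts lay 265, 544 and 176 bp outside it. Another was near Hist1h2ag, Hist1h2bj and Hist1h4i (9.02). The third was near Hist1h2ad, Hist1h2bf and Hist1h3d (4.70), and the fourth near Hist1h1a, Hist1h3a and Hist1h4a (9.02). The last (32.9) contained the starts of Hist2h2ab, Hist2h2ac and Hist2h2be. The median width of the promoter peaks that gave the signals was 1486 bp for histone genes and 1703 bp for all coding genes.

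Divergent pairs were alike within the pair. There were 13 pairs of histone genes on opposite strands with starts up to 1 kb apart, 12 of H2A with H2B and 1 of H2B with H3 (Hist1h2bh and Hist1h3f). Starts were 176 to 660 bp apart, with a median of 268 bp. Both genes were marked in 9 pairs, neither in 4, and in no pair was only a single gene marked. With starts this close the windows of partners overlap, which ties their calls. All 9 marked pairs had a peak in common, and in 5 a single peak covered both starts. In pool D, Hist1h2bh was unmarked and Hist1h3f was marked.

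Peak coverage of histone genes dipped just downstream of the start. The TSS itself lay inside a peak in 41 of 54 marked histone genes (75.9%), against 90.1% of all marked coding genes. A promoter with 2 or more peaks was seen in 20 of 54 (37.0%), against 32.3%. In the bin from 200 to 300 bp downstream of the TSS, 62.7% of bases at marked histone genes were inside a peak, and 88.3% at other marked genes. In the same bin 73.7% of the 50-base words at all 67 histone genes, unmarked ones included, recur elsewhere in the genome, against 7.02% at sampled other genes. The 2 measures did not go together in every bin. Coverage was 69.9% with 15.2% repeated words in the bin from 200 bp upstream, and 73.8% with 53.2% in that from 300 bp downstream. A link between them was not tested. Upstream, in the bin that starts 1000 bp before the TSS, histone genes had more coverage, at 67.0% against 30.8%.

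**Figure D3:**
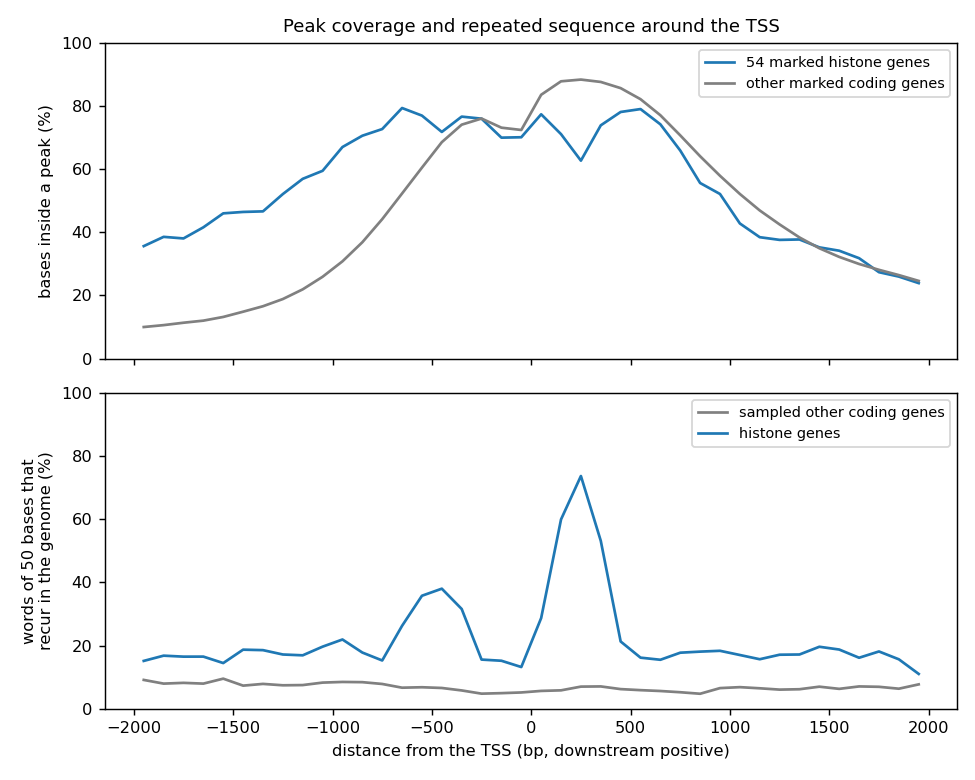
Top, percent of bases inside a peak by distance from the TSS in bins of 100 bp, for the 54 marked histone genes and the other marked coding genes (replicated list). Bottom, percent of 50-base words that recur elsewhere in the genome, for the 67 histone genes and for sampled other coding genes. The histone coverage dips to 62.7% in the bin where the repeated share reaches 73.7%, and a link was not tested.

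The 13 unmarked members fell into testis variants, copied genes and a few others. The testis variants were Hist1h1t (H1), Hist1h2aa (H2A) and Hist1h2ba (H2B), which are known to be made in the male germ line. None of them was marked in any of the 4 lists. The nearest peak lay 1657 bp from the start of Hist1h1t, 114318 bp from Hist1h2aa and 114624 bp from Hist1h2ba. Their promoters were mostly unlike any other sequence, with 0%, 7.1% and 7.1% of their 50-base words, within 1 kb of the start, recurring elsewhere.

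Hist1h1t lies within run 3, among marked genes, whereas Hist1h2aa and Hist1h2ba lie apart as run 4. Its nearest peak is a promoter peak of Hist1h4c, with a signal of 9.34.

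The copied genes are Hist1h2bq, Hist1h2ao, Hist1h4m, Hist1h4n, Hist1h2ap and Hist1h2br, at the end of run 1. The region holds 2 inverted stretches, chr13:21801258-21811780 and chr13:21832162-21842684, each with 10474 words of 50 bases in a row that recur elsewhere. Hist1h2bq and Hist1h2ao lie whole in the first and Hist1h2ap and Hist1h2br in the second. Only the starts of Hist1h4m and Hist1h4n fall inside, with 35 bases of each gene in a stretch. In the promoters of these 6 genes, 92% to 100% of the words recur. Their nearest peaks lay 21833 to 24807 bp away. They were unmarked in all 4 lists. The treatment of reads that map to several places is not stated in these sources, and its part in these missing peaks was not tested.

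The other 4 were Hist1h2ah and Hist1h2bk, Hist1h3g and Hist2h3c1. Hist1h2ah and Hist1h2bk, a divergent pair of run 2 with 32.8% repeated words, had their nearest peaks 4858 and 4556 bp away. Hist1h3g (H3) was marked in pool C, at a signal of 4.47, and in the combined list, at 3.55. In the replicated list its nearest peak lay 1709 bp away, and 13.3% of its words were repeated. In Hist2h3c1 the repeated share was 78.5%.

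**Figure D4:**
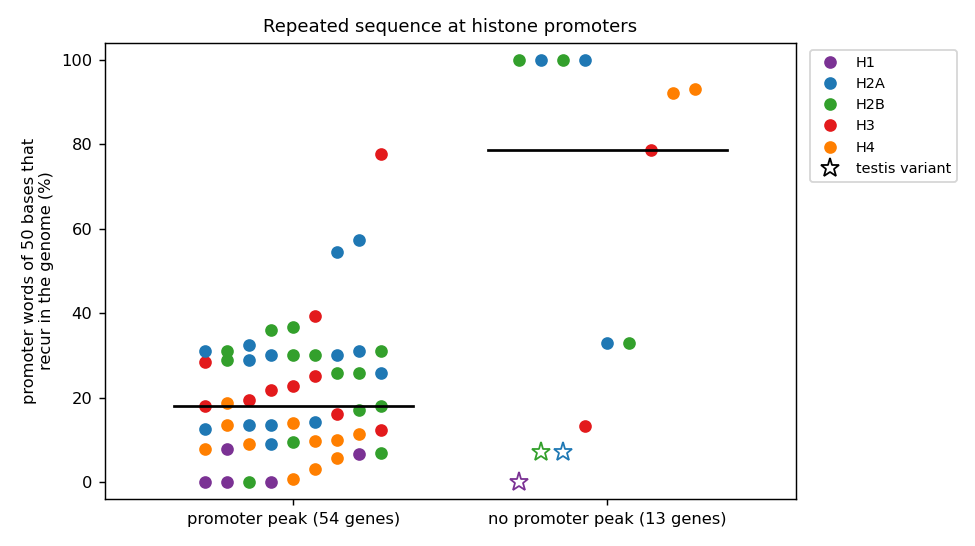
Percent of 50-base words within 1 kb of the TSS that recur elsewhere in the genome, for each histone gene with and without a promoter peak (replicated list); colours give the type, stars the testis variants and black lines the medians. The 6 copied genes at the end of run 1 lie at 92% or more and the testis variants at 7.1% or less.

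Over all members, the median share of repeated words was 18.1% at marked and 78.5% at unmarked promoters. Of the 57 members with less than 50% repeated words 51 were marked (89.5%), and of the 10 with 50% or more 3 were (30%). These 3 were Hist2h3c2, Hist2h2aa1 and Hist2h2aa2. Among sampled other coding genes the marked share was 66.1% (254 of 384) with up to 10% repeated words, 23.5% (8 of 34) with 10 to 50% and 11.1% (2 of 18) above that. Repeated words also filled the coding sequences of the members, with a median of 75%.

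The pools gave much the same picture, with more and wider peaks in pool C. Both pool lists marked 50 histone genes, pool C alone marked 5, pool D alone marked none and 12 were marked in neither. The 5 genes of pool C alone were Hist1h1d, Hist1h2af, Hist1h2bh, Hist1h2bm and Hist1h3g, and the replicated list held all of them except Hist1h3g. Their nearest pool D peaks lay 1050, 1286, 1054, 4602 and 2802 bp from the start in the same order. Of all coding genes marked in the replicated list, 93.9% were also marked in pool D and 98.8% in pool C. The strongest peak was wider in pool C at 49 of the 50 genes, and the median width was 1582 bp in pool C and 902 bp in pool D. Over all coding genes the medians were 1713 and 1215 bp.

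Signal ranks in the pools had a Spearman's rho of 0.76 over the 50 genes, which share peaks and so are fewer points than genes. The median difference of ranks was 5.2 percentage points, and 6 genes differed by more than 20. Hist1h2bf and Hist1h2ad differed most, by 62.2 points. In pool C they were joined to the peak of Hist1h2ae and Hist1h2bg, at a signal of 20.1, and in pool D they had their own peak of 486 bp, at 4.40. Hist1h4h differed by 30.8 points, and Hist1h4i, Hist1h2ag and Hist1h2bj, which share a peak, by 23.2.

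**Figure D5:**
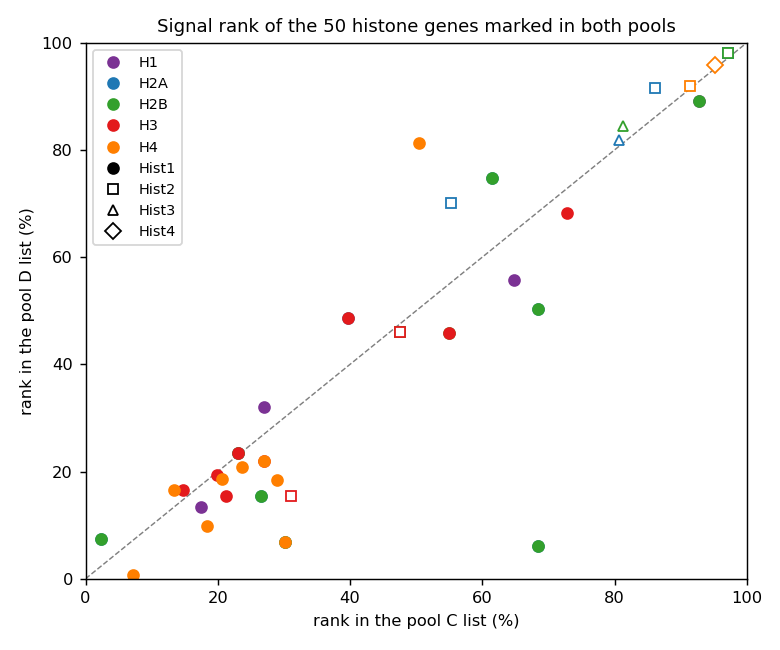
Rank of the strongest promoter signal in the pool C list against that in the pool D list (percent of marked coding genes), for the 50 histone genes marked in both; genes that share a peak fall on the same point. Open symbols, the clusters other than Hist1, lie mostly at the upper right near the dashed line of equal ranks, and the pair at the lower right is Hist1h2bf with Hist1h2ad.

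Genes that work with histones were mostly marked, beside a background of 60.8% of all coding genes. Among other coding genes with a CpG ratio of 0.6 or more the marked share was 91.7%. All 11 replacement histone genes were marked, with a median rank of 62.1%. The highest was H1f0, the linker histone of differentiated cells, with 24.4 at a peak it shares with Gcat. Next came H2afz, which encodes H2A.Z (23.3), H3f3a, which encodes H3.3 (22.5), and Cenpa, the H3 of centromeres (21.7). Of 8 germ-line histones outside the clusters, Hils1, a linker histone of spermatids, was marked in the replicated list alone, at a signal of 2.80. H1fnt, H1foo, H2afb1, H2afb2, H2afb3, H2al2a and H2al1a had none in any list.

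All 15 genes of histone transcription and mRNA processing were marked, beside the background of 60.8%, with a median rank of 50.9%. Slbp, which binds the stem-loop of histone mRNAs, had a signal of 41.3 and a rank of 99.7%. Cpsf2, a subunit of the cleavage complex, had 37.2. Npat, the coactivator of histone genes, had 10.5 at a peak it shares with Atm. Of 14 histone chaperone genes 13 were marked, with Rbbp4 highest at 27.4, at a peak it shares with Zbtb8os. Chaf1b, a subunit of the assembly factor CAF-1, was unmarked in all 4 lists.

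Cell-division genes were marked at 13 of 20 (65%), near the background of 60.8%, with a median rank of 15.5%. Mki67, Top2a, Ccnb1, Cdk1, Cdc6, Mcm3 and Aurkb had no promoter peak in the replicated list. Of these, Top2a was marked in the combined and pool C lists and Ccnb1 in the combined list. Bub1 was marked in the replicated list alone, at a signal of 2.46. Mcm5 (17.0), Birc5 (16.4), Kif11 (15.6) and Cdt1 (13.3) had the highest signals. In the pool C list 11 were marked and in the pool D list 10.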

How the data were processed

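The peak lists were deposited by the authors as narrowPeak files of build mm10, per the labels and the text files beside them. They derive from filtered alignments of each pool with its technical replicates joined; the aligner, peak caller and any control used were not given in the sources used here. Signal and −log10 q per peak are the authors' deposited values; the deposited score for display was not used. Depth per sample is unknown, so an unmarked gene is a gene whose mark was not detected, rather than shown to be absent. Signals were compared within a list only, and ranks between lists.

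The annotation was GENCODE M21 (21853 protein-coding genes on chromosomes other than the mitochondrial one), using TSSs of protein-coding transcripts. A gene took its strongest peak within 1 kb. Words of 50 bases were counted on both strands of GRCm38, for members and for every 50th other coding gene. Repeated words do not measure mappability. Promoter windows came from RefSeq (GRCm38.p6). The assignment of peaks and the word count were tested on simulated data. Strain differences from the reference were not analysed here.

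There was 1 condition with 4 samples, so no test was made. The pool was the unit of replication, and whether the 7 biosamples of a pool are separate animals is not stated. Members and gene lists were chosen with earlier results of these data known. Genes named were the members outside Hist1, those without a peak, the highest and lowest per type and those of the peaks with most histone genes; others were named after their values were seen. Alternatives were other lists, windows of 500 bp and 2.5 kb, stricter peaks, other TSS sets, pair distances, gaps and word lengths. Python 3.11.15 was used with numpy 2.4.6, pandas 2.3.3, numba 0.67.0 and matplotlib 3.10.9.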

Additional observations from a re-analysis of the deposited data

How the results depend on the processing

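Of 287 recomputed values for 41 results, 17 moved. A count was taken as moved past 1.5 times the reported one, a percentage of members or words when outside its 95% Wilson interval, and other values past 1 SD between the pools, so these limits differ by kind of value. Where most of a set was marked, as with 54 of 67 histone genes, a count could not rise past its limit. For such counts an unmoved value says little about a rise. The number of marked histone genes was 50 to 55 with either pool left out, 51 with peaks above the list's median signal, 52 with a 500 bp window and 57 with 2.5 kb, against 54. For all coding genes the numbers were 12480 to 13418, 12545, 13123 and 13617 in the same order, against 13290. With the 2.5 kb window 1 testis variant, Hist1h1t, was marked, the share of marked members sharing their peak was 82.5% against 61.1%, and 2 male germ cell markers were marked. The median rank was 27.7% to 30.1% in the single pools and 22.8% with peaks above the median signal, against 25.6%. Median width was 902 to 1582 bp in the single pools and 2176 bp with peaks above the median signal, against 1486 bp. The peak of Hils1 was lost (0 of 8) in the combined list of the pools, in either pool list, at a −log10 q of 5 or more and above the median signal. With starts up to 2 kb apart there were 21 divergent pairs, 15 of them with both genes marked. Peaks covered 4.15% to 8.32% of run 1 (6.95% as reported), 14.4% to 19.3% of run 3 and 21.8% to 27.5% of Hist2 in the single pools. Chosen after seeing the data were the TSSs of all transcripts, which left 54 genes marked, and leaving out members with copied promoters, which left 51 of 57. The alternative of coding transcripts only is the setting reported above, and the comparison of histone proteins was not run. No paired analysis was possible because the 2 pools belong to a single condition and no result comes from a test. Depth is unknown, so how far it limits the lower count in pool D cannot be stated.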
